A study of Mus musculus with 6 samples.

Results

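The genes described here put peptides on MHC class I molecules. They were taken by name from the table of expression values: H2-K1, H2-D1, H2-T23, B2m, Tap1, Tap2, Tapbp, Calr, Erap1 and Nlrc5. All 10 were found among the 23473 rows with RefSeq gene names, in a table of 56826 rows. Tumors of Lewis lung carcinoma (LLC), a lung cancer line of the mouse that is passed on by inoculation, were raised in 3 NICeCA and 3 control (Ctrl) mice, male C57BL/6 with a labelled age of 8 weeks, and tumor endothelial cells (TECs) were drawn from them on beads carrying an antibody to CD31. NICeCA mice carry Cdh5 cre ERT2 and a Rosa26 allele in which a floxed stop precedes the Notch1 intracellular domain, so tamoxifen switches Notch signaling on, without a ligand, in cells that use the Cdh5 promoter. The labels call the Ctrl mice wild type, and the sources used here do not say plainly whether they were given tamoxifen. Tumors were taken on day 14 after inoculation by the methods, while the labels speak of differing days. Each library came from its own mouse, and the level of each gene is given as RPKM, the reads of a gene divided by the length of its model and by the read total of the library.

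A class I molecule is a heavy chain held together with the small protein beta 2 microglobulin around a short peptide. The peptides are cut from cytosolic proteins by the proteasome, carried into the endoplasmic reticulum by the transporter TAP, trimmed there, and fitted to the heavy chain by a loading complex of chaperones, before the finished molecule moves to the surface to be read by CD8 T cells. Interferons and the transactivator NLRC5 are known to raise many of these genes, though not each of them. NLRC5 works through the RFX complex on class I promoters. Endothelial cells are among the cells that carry class I constantly.

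The libraries held 27793301 to 30769916 reads on RefSeq-named rows. Of 12320 such rows with a mean of at least 1 RPKM, 725 (5.88%) were higher and 946 (7.68%) lower in NICeCA than in Ctrl by limma, with a threshold of 0.05 on p adjusted by Benjamini-Hochberg over all rows tested. These counts rest on single libraries: they were 26 and 1 without NICeCA 2, 91 and 14 without NICeCA 1, and 242 and 137 without Ctrl 2. Notch1 was not called, at 14.3, 8.19 and 13.8 RPKM in Ctrl and 12.3, 13.6 and 12.6 in NICeCA (limma adjusted p = 0.713), and reads of the transgene and of the endogenous gene cannot be separated in this row. The Notch target Nrarp stood at 16.5, 6.34 and 7.59 RPKM in Ctrl and 19.3, 21.1 and 21.0 in NICeCA, with no overlap but an adjusted p of 0.0519 by limma. Of 2 other targets, Hey1 was higher in NICeCA (limma adjusted p = 0.0412) and Hes1 was not called (limma adjusted p = 0.562). Of the cell type markers, 12 endothelial genes summed to 226 to 586 RPKM in Ctrl and 486 to 634 in NICeCA, and 7 macrophage genes to 2576 to 3736 and 1614 to 3445, so the captured fractions held leukocyte RNA beside endothelial RNA. In such bulk samples, fewer cells of a type and less RNA per cell cannot be told apart.

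Of the 10 genes, all of which were tested, 0 were higher and 1, Nlrc5, was lower in NICeCA. The table as a whole had 5.88% higher and 7.68% lower, as above, so the share called among the class I genes was near that of all genes. The log2 fold changes were positive for 7 and negative for 3, with a median of 0.14 against -0.05 over all genes tested, but with quantile normalization 5 of the 7, H2-K1, H2-D1, H2-T23, Tap1 and Calr, were negative. An unadjusted p under 0.05 in limma was reached by 2 of the 10, Calr and Nlrc5, where 35.5% of all genes tested reached it. Values of the 2 groups did not overlap for 3 of the 10, Calr with NICeCA above and Tap2 and Nlrc5 with NICeCA below, while 40.9% of all genes tested had groups that did not overlap. Limma's voom on the read numbers also called 0 of the 10 higher.

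The classical heavy chains come from H2-K1 and H2-D1, whose products present peptides to CD8 T cells, and H2-T23 encodes Qa-1, a nonclassical heavy chain that shows signal peptides to NK cell receptors. H2-K1 lies at chr17:33996012-34000333 on the minus strand and H2-D1 at chr17:35263094-35267497 on the plus strand of GRCm38, with the class II and class III regions of the MHC between them. Of their RefSeq promoters (GRCm38.p6), the 250 bases before the start are shown for both genes, because both encode classical heavy chains and the windows, at chr17:34000348-34000597 (minus strand) and chr17:35262844-35263093 (plus strand), share an exact run of 47 bases. The same stretch is shown for H2-T23 (chr17:36032702-36032951, minus strand) and for B2m (chr2:122147437-122147686, plus strand), which lies on another chromosome. Capitals mark the letters GGGNNTTCC (like an NF-kB site) in H2-K1 and H2-D1, and GAAANNGAA (a form of the core of an interferon response element, either strand) in H2-T23 and B2m. Only these exact letters are marked, and other forms of either element would stand in lower case.
H2-K1: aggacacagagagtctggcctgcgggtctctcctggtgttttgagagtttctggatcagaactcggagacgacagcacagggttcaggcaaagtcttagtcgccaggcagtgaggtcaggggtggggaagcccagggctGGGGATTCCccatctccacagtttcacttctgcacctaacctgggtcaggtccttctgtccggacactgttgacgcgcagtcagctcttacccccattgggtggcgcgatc
H2-D1: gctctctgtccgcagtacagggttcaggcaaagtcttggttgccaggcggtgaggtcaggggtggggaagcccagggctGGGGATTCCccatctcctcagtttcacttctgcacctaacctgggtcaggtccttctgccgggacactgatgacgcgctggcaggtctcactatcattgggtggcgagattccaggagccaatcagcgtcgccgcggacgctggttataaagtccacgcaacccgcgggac
H2-T23: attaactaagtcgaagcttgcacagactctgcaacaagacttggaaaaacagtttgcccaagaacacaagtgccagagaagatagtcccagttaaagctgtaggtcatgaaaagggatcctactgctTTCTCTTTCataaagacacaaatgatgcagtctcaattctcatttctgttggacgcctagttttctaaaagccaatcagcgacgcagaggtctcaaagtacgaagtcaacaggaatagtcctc
B2m: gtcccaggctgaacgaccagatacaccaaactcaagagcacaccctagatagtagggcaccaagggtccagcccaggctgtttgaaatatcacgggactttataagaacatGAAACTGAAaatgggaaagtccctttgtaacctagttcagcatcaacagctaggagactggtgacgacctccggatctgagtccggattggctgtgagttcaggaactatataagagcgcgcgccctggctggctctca

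RefSeq windows from 250 bases before to 50 after a start were given for 8 of the 10 genes, all but Tap2 and Nlrc5. On either strand, GGGNNTTCC was found in 2 of the 8, H2-K1 at 111 and H2-D1 at 171 bases before the start, and in 5.82% of 32851 mouse windows of that length. H2-K1 has another RefSeq start, with chr17:34000334-34000583 before it, which is not shown. The gene model measured here begins at this other start. There the letters lie 125 bases before the start. The letters GAAANNGAA were found in 3 of the 8, H2-T23, B2m and Erap1, and in 8.56% of all windows. CCAAT, the Y box that the factor NF-Y reads, was found in 7 of the 8, all but Erap1, and in 37.4% of all windows; it is not in capitals. GTGGGAA, a core read by RBPJ, the DNA-binding partner of the Notch1 intracellular domain, was in 0 of the 8 windows and in 6.38% of all. These matches describe letters, not sites in use. Other forms of an interferon response element or an NF-kB site were not searched for. A window without the letters, such as H2-K1 and H2-D1 for GAAANNGAA or B2m for GGGNNTTCC, is thus not shown to lack such an element.

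H2-K1 was at 839, 502 and 697 RPKM in Ctrl 1 to 3 and at 766, 773 and 651 in NICeCA 1 to 3. Ctrl holds the highest and the lowest of the 6 values, so the NICeCA values lie inside the Ctrl range. The log2 fold change was 0.13 (SE 0.20, 95% interval -0.34 to 0.60, limma adjusted p = 0.671), which bounds a change between 0.790-fold and 1.52-fold. Without Ctrl 2, the lowest library, it was -0.07.

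H2-D1 was at 1170, 877 and 1005 RPKM in Ctrl and at 1210, 1205 and 1010 in NICeCA. The groups overlap, with Ctrl 2 again lowest. The log2 fold change was 0.17 (SE 0.16, 95% interval -0.20 to 0.55, limma adjusted p = 0.477). The ratio of H2-D1 to H2-K1 was 1.53 ± 0.190 in Ctrl and 1.56 ± 0.0139 in NICeCA (mean ± SD, n = 3 each, exact permutation p = 0.8). The H2-D1 row shares its place with a row named H2-L of similar level, and reads of these rows cannot be told apart.

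H2-T23 (chr17:36029977-36032701, minus strand) was at 103, 70.3 and 103 RPKM in Ctrl and at 107, 98.1 and 99.0 in NICeCA. The NICeCA libraries lie close together, and Ctrl 2 is the single low value. The log2 fold change was 0.16 (SE 0.17, limma adjusted p = 0.542), and -0.03 without Ctrl 2. The ratio of H2-T23 to H2-K1 was 0.137 ± 0.0124 in Ctrl and 0.139 ± 0.0127 in NICeCA (n = 3 each, exact permutation p = 0.8). Heavy chain genes resemble each other, and of all stretches of 50 bases in the longest GENCODE M21 transcript, 8.11% in H2-K1, 14.3% in H2-D1 and 15% in H2-T23 also occur in a transcript of another gene. At 150 bases the shares were 0, 1.79 and 0.441%.

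B2m (chr2:122147687-122153082, plus strand) encodes beta 2 microglobulin, the chain that every class I heavy chain needs to reach the surface. It was at 973, 760 and 1177 RPKM in Ctrl and at 1250, 1501 and 1151 in NICeCA. Only Ctrl 3 reached into the NICeCA range, by a small margin over NICeCA 3. The log2 fold change of 0.44 (SE 0.20, 95% interval -0.02 to 0.89, limma adjusted p = 0.153) did not pass the test, and it was 0.27 without Ctrl 2, the lowest library. The ratio of B2m to the sum of H2-K1 and H2-D1 was 0.484, 0.551 and 0.691 in Ctrl and 0.632, 0.759 and 0.693 in NICeCA. These ratios overlap (exact permutation p = 0.2).

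**Figure D1:**
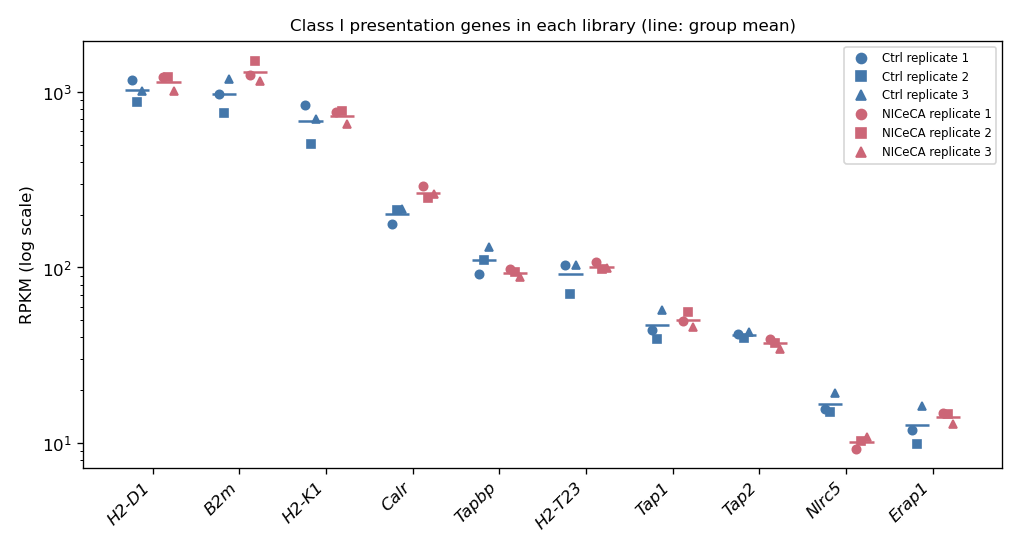
RPKM on a log scale (y axis) of the 10 class I presentation genes (x axis, ordered by Ctrl mean) in each of 3 Ctrl (blue) and 3 NICeCA (red) libraries, with a line at each group mean. The libraries overlap for 7 genes, NICeCA lies above for Calr (249 to 289 against 178 to 214), and it lies below for Tap2 and for Nlrc5 (9.30 to 10.9 against 15.1 to 19.4).

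Tap1 and Tap2 encode the subunits of the TAP transporter, which need each other to carry peptides. Tap1 (chr17:34187556-34197225, plus strand) was at 44.0, 39.5 and 57.4 RPKM in Ctrl and at 49.9, 55.7 and 45.7 in NICeCA. Its groups overlap fully (log2 fold change 0.11, SE 0.17, 95% interval -0.27 to 0.50, limma adjusted p = 0.646). Tap2 (chr17:34204479-34216321, plus strand) was at 41.9, 40.0 and 42.8 RPKM in Ctrl and at 39.5, 37.4 and 34.4 in NICeCA. Its groups did not overlap, but the distance was small (log2 fold change -0.16, SE 0.12, 95% interval -0.43 to 0.10, limma adjusted p = 0.344). The ratio of Tap1 to Tap2 was 1.05, 0.987 and 1.34 in Ctrl and 1.27, 1.49 and 1.33 in NICeCA, with overlap (exact permutation p = 0.3). Tap1 is read away from Psmb9, an immunoproteasome subunit, and the promoter windows of the pair, on opposite strands, share 275 of 300 bases. The ratio of Tap1 to Psmb9 was 1.34 ± 0.150 in Ctrl and 1.32 ± 0.140 in NICeCA (n = 3 each, exact permutation p = 0.8).

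Tapbp encodes tapasin, which bridges TAP and the empty heavy chain and edits the peptide, and Calr encodes calreticulin, a lectin chaperone of the endoplasmic reticulum that also folds many other glycoproteins and holds calcium. Tapbp (chr17:33919478-33929290, plus strand) was at 92.2, 110.4 and 130.0 RPKM in Ctrl and at 98.2, 94.7 and 87.8 in NICeCA. Ctrl 1 lies within the NICeCA range, and the other Ctrl libraries lie above it (log2 fold change -0.23, SE 0.15, 95% interval -0.58 to 0.12, limma adjusted p = 0.311). Calr (chr8:84842088-84846931, minus strand) was at 178, 213 and 214 RPKM in Ctrl and at 289, 249 and 261 in NICeCA. Every NICeCA library lay above every Ctrl library, by a log2 fold change of 0.40 (SE 0.14, 95% interval 0.08 to 0.72), or 1.32-fold, which quantile normalization moved to -0.0061. The unadjusted p was 0.0198 and the adjusted p 0.0833 in limma, so Calr did not pass the threshold. The ratio of Calr to Tapbp was 1.93, 1.93 and 1.65 in Ctrl and 2.95, 2.63 and 2.97 in NICeCA. It was 1.55-fold higher in NICeCA with no overlap (exact permutation p = 0.1, the smallest that 3 against 3 allow, and 0.22 adjusted over 11 ratios). The 11 ratios between class I genes were chosen after the levels had been seen.

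Erap1 (chr13:74639872-74691875, plus strand) encodes the aminopeptidase that trims peptides to class I length. It was at 11.9, 9.97 and 16.3 RPKM in Ctrl and at 14.9, 14.7 and 12.9 in NICeCA. The Ctrl values enclose the NICeCA values (log2 fold change 0.16, SE 0.18, limma adjusted p = 0.532).

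Nlrc5 (chr8:94472763-94527272, plus strand) encodes the class I transactivator. It was at 15.6, 15.1 and 19.4 RPKM in Ctrl and at 9.30, 10.4 and 10.9 in NICeCA, from 2356 to 5246 reads per library. All 3 NICeCA libraries lay below all 3 Ctrl libraries. The log2 fold change was -0.65 (SE 0.14, 95% interval -0.97 to -0.34, limma adjusted p = 0.0304), a level 1.57-fold lower in NICeCA. Nlrc5 was the single gene of the 10 that passed the test. Without NICeCA 1 or NICeCA 2 the adjusted p was 0.119 or 0.125, with a log2 fold change of -0.60 or -0.67, and with no filter on low values it was 0.0569. None of the 50-base stretches of its longest transcript occurs in another gene.

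**Figure D2:**
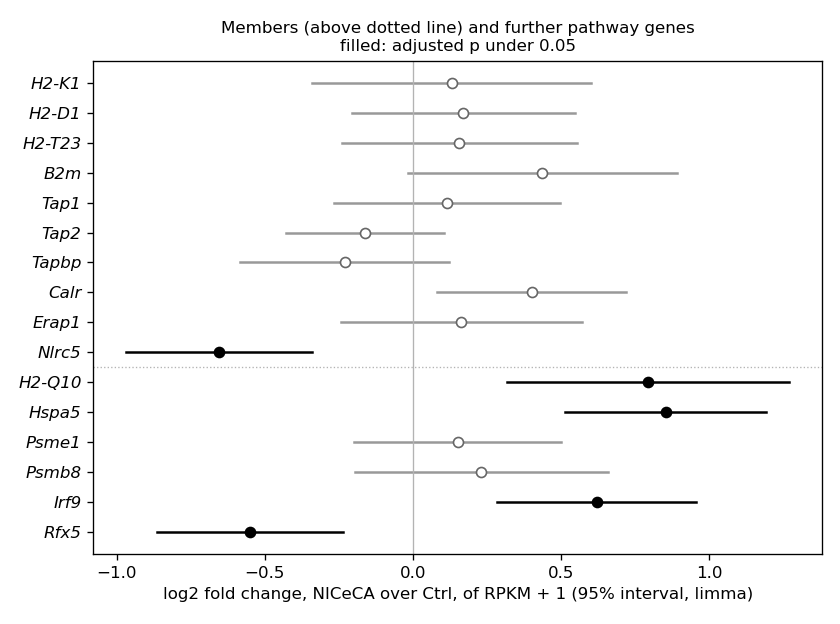
Log2 fold change of RPKM + 1, NICeCA over Ctrl (x axis), with its 95% interval from limma, for the 10 class I genes above the dotted line and 6 further pathway genes below it. Filled points passed an adjusted p under 0.05: Nlrc5 at -0.65 and Rfx5 at -0.55 were lower, and H2-Q10 at 0.79, Hspa5 at 0.85 and Irf9 at 0.62 were higher.

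The length of the gene model moved with the fold changes over the whole table. The median log2 fold change was 0.12 in models under 1500 bases and -0.36 in models of at least 8000 bases, and the share of genes called lower was 2.44% and 27.8%. Nlrc5, with 6945 bases, is the longest of the 10, and in its length class of 6000 to 8000 bases 18.7% of 808 genes were lower, with a median of -0.24. With the trend on length removed from each library, Nlrc5 had a log2 fold change of -0.40 and a limma adjusted p of 0.0588. B2m, with 858 bases, is the shortest, and with the same correction its log2 fold change was 0.27 (limma adjusted p = 0.351) in place of 0.44. Whether length has a part in these values beyond this correction was not tested.

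**Figure D3:**
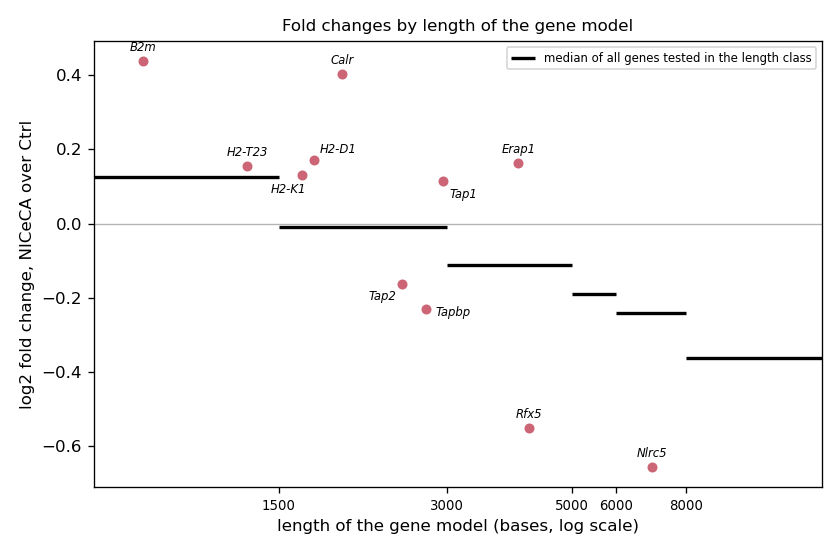
Log2 fold change, NICeCA over Ctrl (y axis), of the 10 class I genes and Rfx5 (points) against the length of the gene model in bases (x axis, log scale), with the median of all genes tested in each length class (black lines). The medians run from 0.12 under 1500 bases to -0.36 from 8000 bases, and Nlrc5 at -0.65 lies below the -0.24 of its class.

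Ratios within a library do not depend on a scaling of whole libraries, but those of genes of unlike length carry the length trend. The ratio of H2-K1 to Nlrc5 was 53.8, 33.4 and 36.0 in Ctrl and 82.5, 74.7 and 59.7 in NICeCA. That of H2-D1 to Nlrc5 was 75.1, 58.3 and 51.9 in Ctrl and 130.2, 116 and 92.8 in NICeCA. The ratio of B2m to Nlrc5 was 62.5, 50.5 and 60.8 in Ctrl and 134.5, 145 and 106 in NICeCA. All NICeCA ratios lay above all Ctrl ratios for these genes and for Tap1 to Nlrc5, with geometric means 1.79-fold (H2-K1), 1.84-fold (H2-D1), 2.21-fold (B2m) and 1.77-fold (Tap1) higher. Each had an exact permutation p of 0.1, the smallest possible, and 0.22 after adjustment over the 11 ratios. With the length trend removed, the log2 fold changes were 0.08 for H2-K1, 0.14 for H2-D1, 0.27 for B2m and 0.18 for Tap1 against -0.40 for Nlrc5, a smaller distance in each case than without the correction (0.13, 0.17, 0.44 and 0.11 against -0.65). These ratios share the Nlrc5 values as their denominator and are not independent of each other. The ratio of Nlrc5 to Rfx5 was 3.19 ± 0.673 in Ctrl and 3.09 ± 0.0979 in NICeCA (n = 3 each, exact permutation p = 1).

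**Figure D4:**
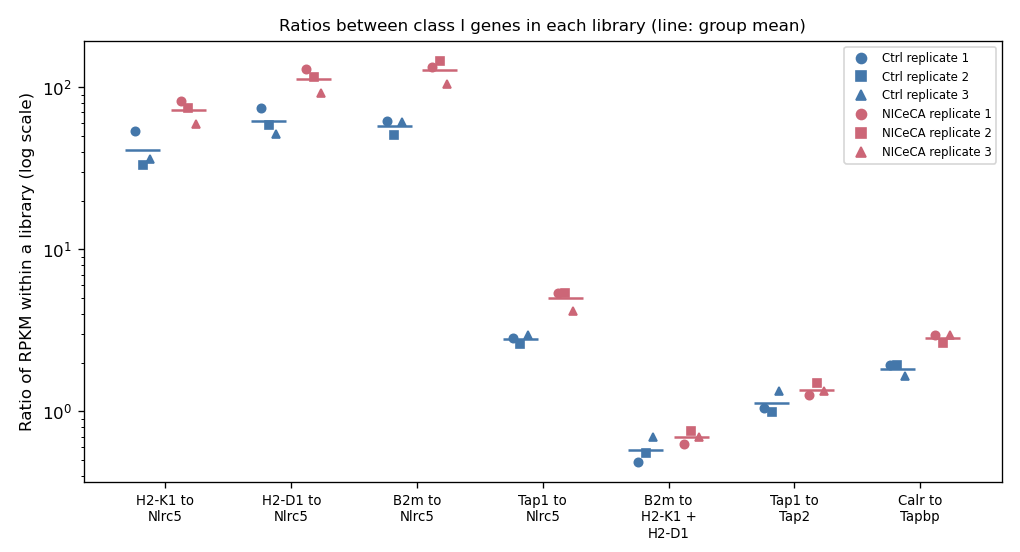
Ratios of RPKM within a library on a log scale (y axis) for 7 pairs of class I genes (x axis) in 3 Ctrl (blue) and 3 NICeCA (red) libraries, with a line at each group mean. The 4 ratios to Nlrc5 and the ratio of Calr to Tapbp lie higher in every NICeCA library than in any Ctrl library, while B2m to the heavy chains and Tap1 to Tap2 overlap.

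In order of RPKM, which is per length, the Ctrl means ran from H2-D1 (1017), B2m (970) and H2-K1 (679) through Calr (202), Tapbp (111), H2-T23 (92.1), Tap1 (46.9) and Tap2 (41.5) to Nlrc5 (16.7) and Erap1 (12.7). The Ctrl libraries of neighbours in this order overlapped for H2-D1 and B2m, B2m and H2-K1, Tapbp and H2-T23, Tap1 and Tap2, and Nlrc5 and Erap1, so these pairs are not ordered beyond their spread. In NICeCA the order was B2m (1301), H2-D1 (1142), H2-K1 (730), Calr (267), H2-T23 (101), Tapbp (93.6), Tap1 (50.4), Tap2 (37.1), Erap1 (14.1) and Nlrc5 (10.2). There the libraries of neighbours overlapped for B2m and H2-D1 and for H2-T23 and Tapbp. The transactivator thus had the lowest level of the 10 in NICeCA, while B2m, H2-D1 and H2-K1 ranked 31, 34 and 88 among the 12320 genes by their mean over the 6 libraries.

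Ctrl libraries varied more than NICeCA libraries for 9 of the 10 genes, all but Tap2. The coefficient of variation was 24.9% in Ctrl and 9.44% in NICeCA for H2-K1, and 25.3% and 7.81% for Erap1. The share over all genes tested was not counted, so this is not shown to be particular to class I genes. Among cell type markers it was 49.7% and 10.3% for Pecam1 and 49.1% and 7.01% for Ptprc, but 19.6% and 39.8% for C1qa. Ctrl 2 was the lowest of the 6 libraries for H2-K1, H2-D1, H2-T23, B2m, Tap1 and Erap1. The same library had the lowest summed RPKM of the endothelial markers, at 226 against 294 to 634 in the others, and of 5 pan-leukocyte markers, at 462 against 573 to 891. The part of these sums in the class I values was not tested.

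Further genes of the pathway were written down as 63 genes in 4 groups. Of these, 56 were tested, 3 were higher, 1 was lower and 52 were not called, beside 5.88% higher and 7.68% lower over all genes tested, so neither count stood above the table as a whole. The 7 genes under the minimum were H2-Q1, H2-Q2, H2-T3, H2-M9, H2-Bl, Cd1d2 and Ifnb1. The log2 fold changes were positive for 41 and negative for 15, with a median of 0.15 against -0.05 over all genes tested. The 41 include H2-Q6 and H2-Q8, H2-Q7 and H2-Q9, and H2-T9 and H2-T22, pairs of rows that cover the same places. Quantile normalization turned Psme1 (-0.20) and Psmb8 (-0.11) negative, while H2-Q10, Hspa5 and Irf9 stayed positive. The length trend was not removed from these counts.

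Among 17 tested genes of 23 other class I and class I-like heavy chains, 1 was higher, 0 were lower and the median was 0.16. H2-Q10, a heavy chain best known as a secreted liver product, was at 0.383, 0.511 and 0.505 RPKM in Ctrl and at 0.986, 1.46 and 2.35 in NICeCA. The groups did not overlap (log2 fold change 0.79, SE 0.21, limma adjusted p = 0.0442). At this low level the added 1 RPKM sets the size: the log2 fold change was 1.51 with a pseudocount of 0.1 and 1.65 with voom. Only 22 to 129 reads per library lie behind the values, and the call was lost when any 1 library was left out (limma adjusted p = 0.0688 to 0.156). In H2-Q10, 19.7% of 50-base stretches occur in another gene, most of them in H2-Q7, and 3.9% of 150-base stretches do. The rows H2-Q6 and H2-Q8, H2-Q7 and H2-Q9, and H2-T9 and H2-T22 cover the same places and are not separate measurements.

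Of 6 helpers of folding and loading in the endoplasmic reticulum, 1 was higher, 0 were lower, and the median was 0.0085. Hspa5 encodes BiP, the main chaperone of that compartment, which serves all secreted proteins. It was at 176, 186 and 233 RPKM in Ctrl and at 368, 361 and 341 in NICeCA. Every NICeCA library lay above every Ctrl library, and the log2 fold change was 0.85 (SE 0.15, limma adjusted p = 0.0209), or 1.81-fold. It did not pass without Ctrl 2, NICeCA 1 or NICeCA 2 (limma adjusted p = 0.0512, 0.0902 and 0.0991), nor with quantile normalization, where the log2 fold change was 0.44.

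None of the 10 genes of cytosolic peptide supply was called, and the median was 0.09. Psme1, a subunit of the proteasome activator PA28, was at 93.6, 98.2 and 119 RPKM in Ctrl and at 125, 121 and 99.7 in NICeCA (log2 fold change 0.15, limma adjusted p = 0.501). Psmb8, an immunoproteasome subunit, was at 87.2, 65.8 and 91.7 RPKM in Ctrl and at 105, 106 and 77.2 in NICeCA (log2 fold change 0.23, limma adjusted p = 0.398). Both overlap between the groups.

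Of 23 tested genes of transcription and interferon signaling, 1 was higher and 1 lower, with a median of 0.12. Irf9, the DNA-binding part of the complex that answers type I interferon, was at 10.6, 10.7 and 14.2 RPKM in Ctrl and at 17.0, 19.6 and 19.2 in NICeCA. All NICeCA libraries were higher (log2 fold change 0.62, SE 0.15, limma adjusted p = 0.0373), though the call was lost without any 1 library other than Ctrl 3 (limma adjusted p = 0.0661 to 0.155). Rfx5, the DNA-binding subunit of the RFX complex through which NLRC5 acts, was at 4.68, 6.13 and 5.12 RPKM in Ctrl and at 2.92, 3.33 and 3.64 in NICeCA. All NICeCA libraries were lower (log2 fold change -0.55, SE 0.14, limma adjusted p = 0.0410). The call on Rfx5 held without Ctrl 1 and was lost without any other single library (limma adjusted p = 0.0533 to 0.155). It was also lost with the length trend removed (limma adjusted p = 0.0881).

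Class I genes are used by nearly all nucleated cells, so markers of the cell types in the fraction are given beside them. The neutrophil markers found, 5 of 6, summed to 113 to 258 RPKM in Ctrl and 513 to 1553 in NICeCA, with 4 of 5 called higher. The 7 macrophage markers had 1 higher and 0 lower, but 5 of the 7 had a negative log2 fold change, with a median of -0.30. The 5 pan-leukocyte markers had 1 higher and 0 lower, with a median of 0.34. The 12 endothelial markers had 0 called in either direction, but all 12 had a positive log2 fold change, with a median of 0.64. Of 7 T and NK cell markers 0 were called, with sums of 39.0 to 54.7 RPKM in Ctrl and 32.7 to 46.7 in NICeCA. The sums of 5 dendritic cell markers were 14.8 to 36.6 and 18.9 to 21.2 RPKM (1 of 4 tested lower), and those of 4 B cell markers 3.01 to 13.2 and 6.63 to 16.8 (0 of 3 tested called). Those of 5 fibroblast markers were 50.3 to 103 and 45.7 to 83.9 (2 of 5 tested lower), and those of 5 pericyte markers 28.3 to 39.3 and 50.4 to 96.3 (1 of 4 tested higher). Those of 3 epithelial markers were 4.12 to 5.26 and 1.60 to 3.48, where the single marker tested, Krt18, was lower. No marker was at 0 in all libraries. The part of these cell types in the values of Nlrc5, Calr, B2m, Hspa5, Irf9, Rfx5 and H2-Q10 was not tested.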

How the data were processed

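The authors deposited RPKM values for each library, with no pooling of replicates. The submitters' processing notes name TopHat2 and mm9, but the coordinates fit GRCm38, whose annotation 99.3% of 21662 compared symbols overlap. The sources used here give neither the counting tool nor its use of strand. Reads of overlapping genes thus cannot be separated. Of the RPKM values with low read numbers, 100% came out as whole reads within a tolerance of 0.05 reads, so depth is known. The class I members have more reads, at least 1593 in any library, and were not part of this check. Intervals are for the difference between group means and rest on the spread of these libraries.

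The comparison of 3 NICeCA with 3 Ctrl libraries used log2(RPKM + 1) and limma 3.58.1 (R 4.3.3; functions lmFit and eBayes, the latter with trend, two-sided), on RefSeq rows with a mean of at least 1 RPKM. Fold changes are on this scale, which understates changes of low genes. The methods name no test for bulk RNA-seq. Ratios were compared by exact permutation tests over 20 assignments, two-sided. The limma fit was also run on simulated reads, drawn separately for each gene and library and without the length trend seen here. That run does not show how the fit behaves under such a trend. Tables were handled with Python 3.11.15, numpy 2.4.6 and pandas 2.3.3, and figures drawn with matplotlib 3.10.9. Promoters are from RefSeq (GRCm38.p6), and shared stretches from GENCODE M21 transcripts.

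The members and lists were chosen with earlier results of these data known. Named were the 10 members, the further pathway genes that were called, in a group with none called the 2 with the highest mean RPKM, and the 5 genes with the profile most like that of H2-K1 and of Nlrc5. Notch1, Nrarp, Hey1 and Hes1 were added to check the labels. Alternatives were the replicate number as a block, omission of each library, a pseudocount of 0.1, quantile normalization, a minimum of 5 RPKM, no filter, trimmed mean scaling, no variance trend, voom, all rows of the table and a threshold of 0.1. Removal of the length trend was added after the data were seen.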

Additional observations from a re-analysis of the deposited data

How the results depend on the processing

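The count of class I genes called lower was 1 (Nlrc5), and 0 with the replicate block, with no filter and with the length trend removed, 2 with quantile normalization (Tapbp and Nlrc5), and 0 to 1 when any 1 library was left out. The count called higher was 0, and 1 (Calr) at a threshold of 0.1. Of the further pathway genes, the 3 called higher became 0 with the replicate block, 1 with no filter (Hspa5) and 0 to 4 with 1 library left out. The 1 called lower became 0 with the replicate block, no filter, quantile normalization, a minimum of 5 RPKM (Rfx5 then falls out) and the length trend removed, 2 at a threshold of 0.1 (Rfx5 and Nfya), and 0 to 1 with 1 library left out. The gene called lower was Rfx5 without Ctrl 1 and H2-M2 without Ctrl 2. Nlrc5 stayed negative under all 16 alternatives, at -0.74 to -0.40 on the log2 scale, and was called in 11 (limma adjusted p 0.0251 to 0.125), with 0.0560 in the replicate block, where Hspa5 also lost its call (0.0542). Calr was called in 0 of 16 (0.0501 to 0.976). Quantile normalization turned the sign of H2-K1 (-0.11), H2-D1 (-0.0403), H2-T23 (-0.19), Tap1 (-0.11), Calr (-0.0061), Psme1 (-0.20) and Psmb8 (-0.11), and leaving out 1 library gave -0.0705 to 0.299 for H2-K1 and -0.0252 to 0.249 for H2-T23, each lowest without Ctrl 2. The cause of these shifts was not tested. The methods speak of pairs of mice but do not say which mice form them, and the replicate numbers do not show it: deviations of Ctrl and NICeCA libraries with the same number correlated at 0.122, -0.343 and -0.178 over genes, and the block gave 327 higher and 209 lower of all genes, against 725 and 946 without it. Of all calls, 43.4% were higher, and 59.4% with trimmed mean scaling, 57.9% with quantile normalization, 33.8% with voom (683 higher, 1337 lower), 61.0% with the replicate block and 74.1% with the length trend removed. With 1 library left out it was 38.1% to 96.3%, the highest without NICeCA 2 (26 higher, 1 lower), and 86.7% without NICeCA 1 and 63.9% without Ctrl 2.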

Other observations

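Genes outside all lists whose centred log2 profile over the 6 libraries was most like that of H2-K1, by the mean absolute difference among 12201 genes, were Klf10 (0.037), Tmem106b (0.038), Inpp5k (0.048), Gpr15 (0.048) and Crebl2 (0.055). For Nlrc5 they were Aak1 (0.039), Crebbp (0.043), Ubn2 (0.045), Parp8 (0.046) and Stx16 (0.051). The 6 points of each profile come from the same libraries that the comparison uses, so these likenesses are descriptions.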
